A study of Mus musculus with 6 samples.

Results

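The 10 transcription factors described here bind or share the E-box, a short DNA element, through a basic helix-loop-helix (bHLH) domain: *Bhlhe40*, *Bhlhe41*, *Usf1*, *Usf2*, *Mitf*, *Tfe3*, *Tfeb*, *Tfec*, *Myc* and *Max*. They were chosen as the targeted gene, its paralogue and activators or repressors that share the E-box or the related lysosomal element with Bhlhe41, and every probe whose transcript maps to one of these symbols was read. All 10 were measured, by 20 of 56605 probes on the array, among 23462 genes with a named and tested probe. The samples were microglia from 3-month-old mice, sorted as live CD45low CD11b+ Cx3cr1+ cells, with 3 samples of genotype *Bhlhe41* dTomato-Cre/+ (B41 HET) and 3 of genotype *Bhlhe41* dTomato-Cre/dTomato-Cre (B41 KO). Each sample was a pool of 10 to 15 mice according to the methods. Both genotypes carry the knock-in, in which the *Bhlhe41* promoter drives dTomato and Cre from a cassette placed before the start codon, so the control is heterozygous for the loss of Bhlhe41 and no wild-type sample enters the comparison. RNA was hybridised in 1 colour, so each probe gives 1 fluorescence signal per sample, printed here as log2 after quantile normalization over the 6 arrays.

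bHLH factors bind DNA as dimers, and most of those described here prefer the palindrome CACGTG. Bhlhe40 and Bhlhe41 repress from it and act within the circadian clock. Usf1 and Usf2 are broadly expressed activators that bind the same site. Mitf, Tfe3, Tfeb and Tfec form the MiT/TFE family, which binds the E-box and its extended form in lysosomal and autophagy genes, known as the CLEAR element, and Myc with its partner Max drives genes of growth and ribosome production. The comparison therefore asks how the RNA of factors that share a DNA site differed between microglia with 1 and with no intact *Bhlhe41* allele.

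Where the sequences themselves carry the site, they are shown. The RefSeq promoter table for GRCm38.p6, with 250 bases before and 50 after each start, holds windows for 7 of the 10 genes and CACGTG in the windows of *Bhlhe41* and *Max* only. It holds no entry for *Bhlhe40*, *Usf2* and *Myc*. The stretch before the *Bhlhe41* start, chr6:145865421-145865670 on the minus strand, is printed whole because it is the promoter that drives the reporter. In *Max*, chr12:76962246-76962291 on the minus strand, the site begins 3 bases before the start. Capitals mark CACGTG.
Bhlhe41: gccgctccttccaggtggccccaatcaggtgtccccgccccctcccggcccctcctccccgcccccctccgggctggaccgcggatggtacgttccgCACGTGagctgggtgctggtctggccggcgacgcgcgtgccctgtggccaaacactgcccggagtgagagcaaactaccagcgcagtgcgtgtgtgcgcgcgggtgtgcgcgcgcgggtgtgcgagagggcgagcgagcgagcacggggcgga
Max: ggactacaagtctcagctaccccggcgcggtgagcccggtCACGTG
CACGTG reads the same on both strands, and it was found in the windows of 9.19% of the 18490 tested genes with an entry. The shares were 9.91% of the 757 genes called lower in B41 KO microglia, 10% of the 259 called higher and 9.15% of the 17474 not called. The median GC content of the windows was 59.3%, 53.0% and 56.0% in the same order. The CATGTG E-box, searched on both strands, was found in none of the windows of the 7 member genes and in 13.5% of tested genes. A match describes these letters in this window and does not by itself show a bound factor. For the *Bhlhe41* site printed above, the paper reported a separate test in wild-type microglia. There, chromatin immunoprecipitation with an antibody to Bhlhe41 enriched a fragment that holds this site.

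Of the 20 probes, 3 were called lower in B41 KO microglia and 0 higher, where a call needs an adjusted p of 0.05 or less over all probes (limma with Benjamini-Hochberg adjustment) and a log2 fold change of at least 0.5 in size. The called probes belong to *Usf2*, *Tfe3* and *Tfeb*. Over all tested probes, 3.38% were called lower and 1.72% higher. Taking the brightest probe of each gene, 2 of 10 genes were called lower (*Usf2* and *Tfe3*) and 0 higher, against 4.05% of all genes called lower and 1.44% called higher. Of the 8 members read by several probes, 0 had a call on every probe and 3 had a call on some. Array-wide, 8057 genes were read in this way, of which 76 had every probe called and 940 only some. At an unadjusted p under 0.05, 8 of the 20 probes were lower (those of *Usf2*, *Tfe3*, *Tfeb*, *Myc* and *Max*) and 1 was higher, a *Bhlhe41* probe, while 12.1% of all probes were lower and 10.8% higher at that level. Every B41 KO sample lay below every B41 HET sample on 8 of the 20 probes and above on 1, while 15.3% of all probes lay below and 14.4% above in this way. The median log2 fold change of the 9 genes whose brightest probe was well above background on all arrays was -0.35, beside 0.01 for all genes. With 3 samples against 3, no exact permutation test on a single probe can go below p = 0.1.

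**Figure D1:**
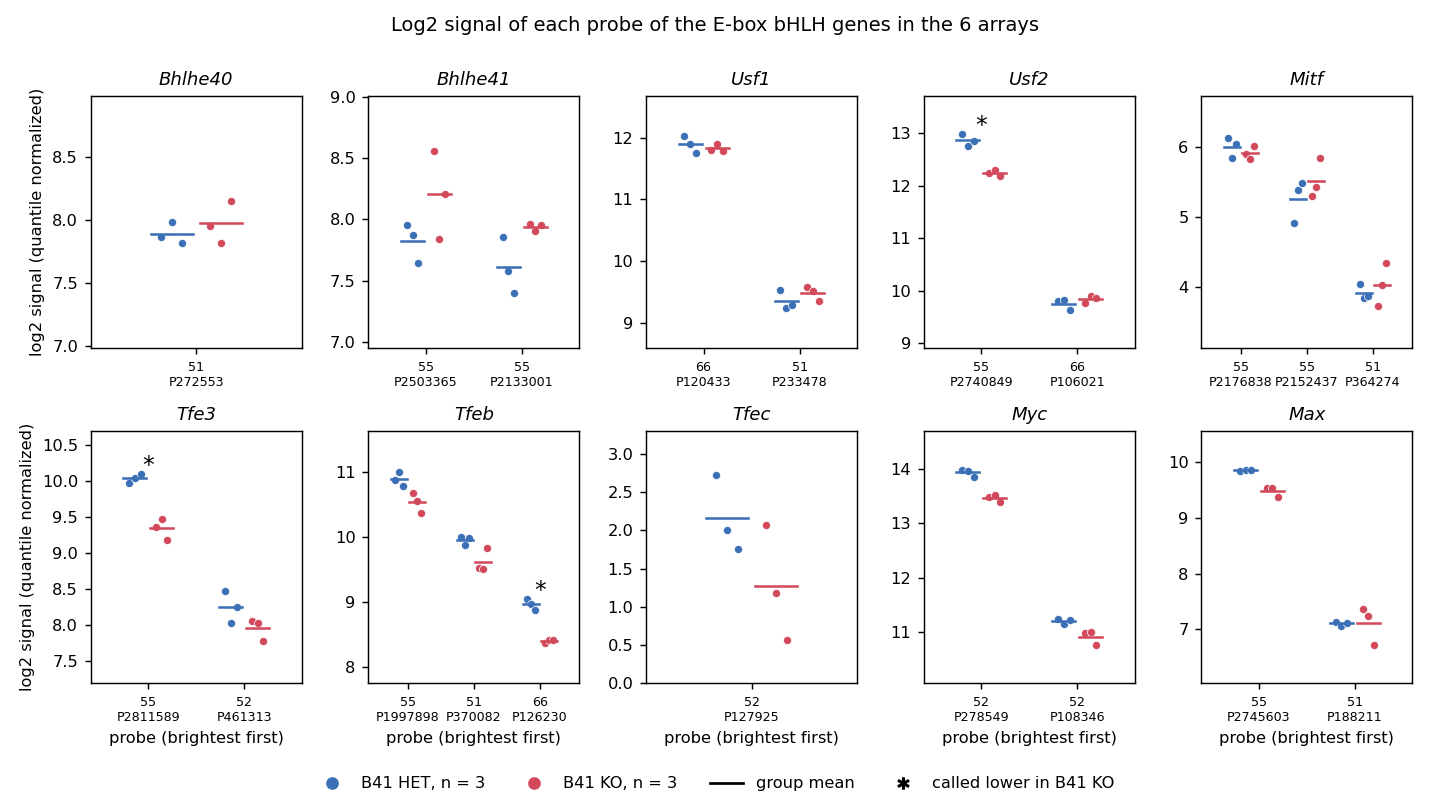
Log2 signal (y axis, quantile normalized, with an axis range of its own in each panel) of every probe of the 10 genes (x axis, brightest probe first) in the 3 B41 HET and 3 B41 KO samples, with points for samples and lines for group means. An asterisk marks the 3 probes called lower, and *Usf2* shows the widest split between its probes, with one called probe and one in which the genotypes overlap.

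Bhlhe41, the targeted repressor, was not lower on either of its probes. On the brighter probe, A_55_P2503365, the B41 HET samples read 7.95, 7.87 and 7.65 and the B41 KO samples 8.56, 7.84 and 8.21. The first B41 KO sample was the highest, and the second lay within the B41 HET range. The log2 fold change was 0.38 (standard error, SE, 0.20, adjusted p = 0.330 from limma). On the other probe, A_55_P2133001, the B41 HET samples read 7.86, 7.58 and 7.40 and the B41 KO samples 7.96, 7.91 and 7.95. Here the B41 KO samples were all above the B41 HET samples, by 0.05 at the narrowest, with a log2 fold change of 0.33 (95% confidence interval 0.01 to 0.64, adjusted p = 0.204 from limma). Neither value passed the threshold, and where the probes lie relative to the inserted cassette is not known here, so the transcript does not check the genotype labels. The brighter probe gave 0.74 in a fit with slide row as a block, which compares the first B41 KO array alone with the B41 HET arrays (adjusted p = 0.202).

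Bhlhe40, the paralogue, is a repressor of the same kind that binds the same site. Its single probe read 7.87, 7.99 and 7.82 in B41 HET and 7.95, 7.83 and 8.15 in B41 KO samples. The groups overlapped, and the log2 fold change of 0.08 had a 95% confidence interval of -0.18 to 0.35 (adjusted p = 0.708 from limma), so a rise of more than 0.35 lies outside the interval. Without the third B41 KO sample the value was -0.00378. The change of *Bhlhe41* exceeded that of *Bhlhe40* by 0.30 within arrays, which did not stand out from the spread (two-sided exact permutation test, p = 0.3).

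Usf2 was called lower on its brighter probe and not on the other. On A_55_P2740849 the B41 HET samples read 12.99, 12.76 and 12.85 and the B41 KO samples 12.24, 12.31 and 12.18. The groups were 0.45 apart at the nearest samples. The signal fell by 0.62 (log2; SE 0.09, adjusted p = 0.0200 from limma), or 35.0%. The other *Usf2* probe, A_66_P106021, read 9.80, 9.82 and 9.63 in B41 HET and 9.77, 9.90 and 9.86 in B41 KO samples, a change of 0.09 (95% confidence interval -0.12 to 0.30, adjusted p = 0.586 from limma). The difference between the probes was smaller in every B41 KO sample than in every B41 HET sample, by 0.72 on average (two-sided exact permutation test, p = 0.1, the minimum for this design). Both probes were designed on the same transcript. Dropping any single sample ended the call on the brighter probe, while the change stayed between -0.68 and -0.56 (adjusted p from 0.0594 to 0.0688).

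Usf1, which pairs with Usf2, passed the threshold on neither probe. Its brightest probe read 12.03, 11.89 and 11.75 in B41 HET and 11.80, 11.90 and 11.79 in B41 KO samples. These groups overlapped, with a log2 fold change of -0.06 (95% confidence interval -0.30 to 0.17). The other probe gave 0.13 (95% confidence interval -0.15 to 0.41). The difference between the changes of *Usf2* and *Usf1* was not tested.

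In the MiT/TFE family, *Tfe3* and *Tfeb* gave values below 0 on all 5 of their probes, 2 of them called, while no probe of *Mitf* or *Tfec* passed the threshold. Tfe3 and Tfeb are held in the cytosol while mTORC1 is active and move to the nucleus when nutrients fall, so RNA levels give 1 layer of their control. On the brightest *Tfe3* probe, A_55_P2811589, the B41 HET samples read 9.98, 10.05 and 10.10 and the B41 KO samples 9.37, 9.48 and 9.18. The nearest samples of the 2 groups were 0.50 apart, and the signal fell by 0.70 (SE 0.10, adjusted p = 0.0202 from limma), or 38.5%, the largest change among the 19 member probes well above background on all arrays. The other *Tfe3* probe, A_52_P461313, read 8.47, 8.04 and 8.26 in B41 HET and 8.06, 8.03 and 7.78 in B41 KO samples. There the groups overlapped and the change was -0.30 (adjusted p = 0.284 from limma). The brighter probe lost its call without any 1 of the 3 B41 HET samples or the first B41 KO sample, with adjusted p of 0.0661, 0.0850, 0.0698 and 0.0660 in that order, and kept it without the second (0.0450) or the third (0.0451) B41 KO sample.

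The brightest *Tfeb* probe, A_55_P1997898, read 10.88, 11.004 and 10.78 in B41 HET and 10.69, 10.56 and 10.37 in B41 KO samples. The genotypes did not overlap, but the log2 fold change of -0.35 did not pass the threshold (SE 0.11, adjusted p = 0.135 from limma). The second probe, A_51_P370082, changed by -0.34 (adjusted p = 0.152) and also separated the samples without passing. The dimmest, A_66_P126230, read 9.05, 8.97 and 8.88 in B41 HET and 8.38, 8.42 and 8.42 in B41 KO samples. It fell by 0.56 (SE 0.08, adjusted p = 0.0172 from limma), or 32.3%, and was called. With 1 sample left out this call held only without the third B41 HET sample (adjusted p = 0.0444) and otherwise gave adjusted p from 0.0543 to 0.0787. It was also lost with normexp background correction (-0.47, under the fold threshold). Of the *Tfeb* probes, 3 of 3 thus had every B41 KO sample below every B41 HET sample.

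Mitf, the factor of pigment cells and osteoclasts, gave log2 fold changes of -0.09, 0.26 and 0.11 on its 3 probes, each with overlapping groups and a 95% confidence interval that spans 0. Its brightest probe read 6.13, 5.84 and 6.04 in B41 HET and 5.90, 5.83 and 6.02 in B41 KO samples. Tfec, the family member known from macrophages, was not well above background on any of the 6 arrays, so no change is given.

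**Figure D2:**
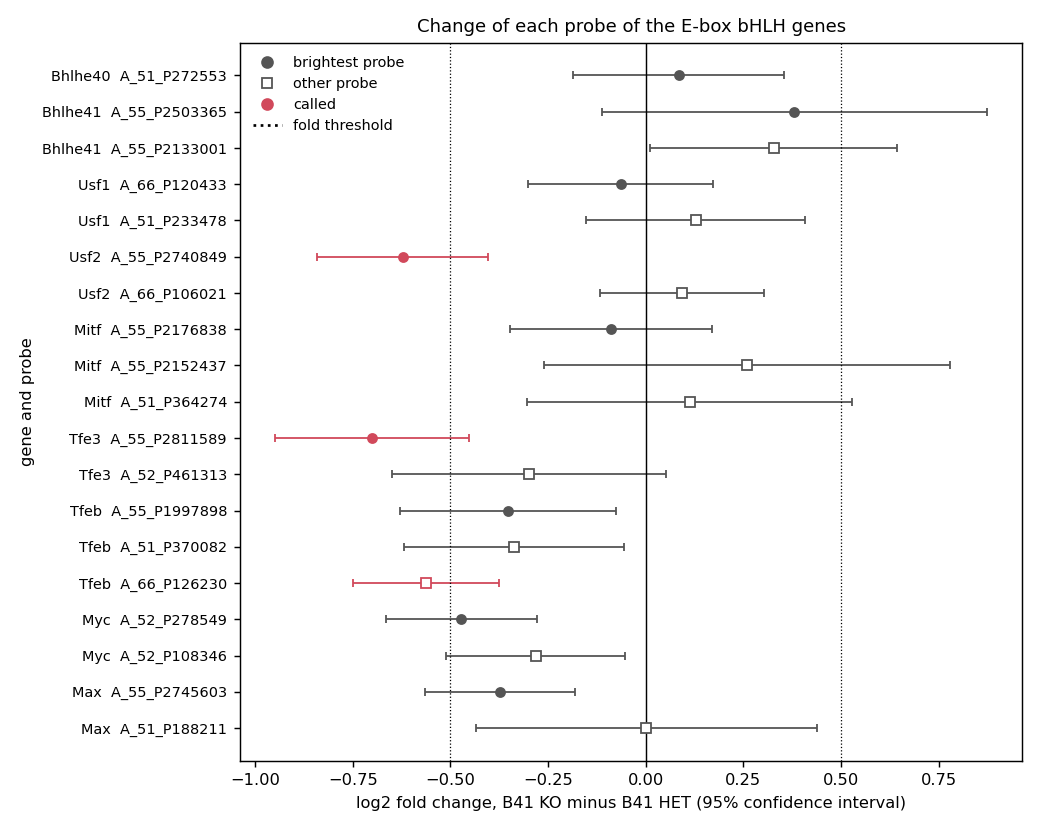
Log2 fold change (x axis, B41 KO minus B41 HET, points) with its 95% confidence interval (bars) for each of the 19 probes well above background on all arrays (y axis), with dotted lines at the fold threshold of 0.5. Filled circles are the brightest probe of a gene and open squares the others, and the 3 called probes, in red, lie at -0.70, -0.62 and -0.56.

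Myc and Max, which form an activating dimer, were lower on their brightest probes without reaching both parts of the threshold. The brightest *Myc* probe, A_52_P278549, read 13.98, 13.96 and 13.85 in B41 HET and 13.47, 13.53 and 13.39 in B41 KO samples. The groups were 0.33 apart at the nearest samples. Its log2 fold change of -0.47 (SE 0.08, adjusted p = 0.0289 from limma) passed on adjusted p and fell short of the fold threshold. The other *Myc* probe, A_52_P108346, gave -0.28 (adjusted p = 0.145), with no overlap between the genotypes either. The brightest *Max* probe, A_55_P2745603, read 9.85, 9.86 and 9.87 in B41 HET and 9.54, 9.54 and 9.37 in B41 KO samples, a log2 fold change of -0.37 (SE 0.08, adjusted p = 0.0504 from limma). The B41 HET samples were close together and all above the B41 KO samples. The dimmer *Max* probe gave 0.00 (95% confidence interval -0.44 to 0.44), with B41 KO samples at 7.36, 7.24 and 6.72 around the B41 HET values of 7.13, 7.06 and 7.12. With arrays aligned at their 75th percentile rather than quantile normalized, *Myc* passed both parts (-0.51, adjusted p = 0.0420), on a scale on which the median of all genes moved to 0.10.

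The slide row was read from position numbers in the names of the scanner output, and no sample label gives it. By these numbers the arrays of the B41 HET samples and of the first B41 KO sample lie in 1 row. Those of the other B41 KO samples lie in the next. With the slide row as a block the called probes gave -0.63 for *Usf2* (adjusted p = 0.143), -0.67 for *Tfe3* (adjusted p = 0.153) and -0.59 for *Tfeb* (adjusted p = 0.119), so the sizes stayed close and the calls were lost. This fit rests on 1 B41 KO array, and in it 118 genes were called lower and 84 higher of all genes.

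**Figure D3:**
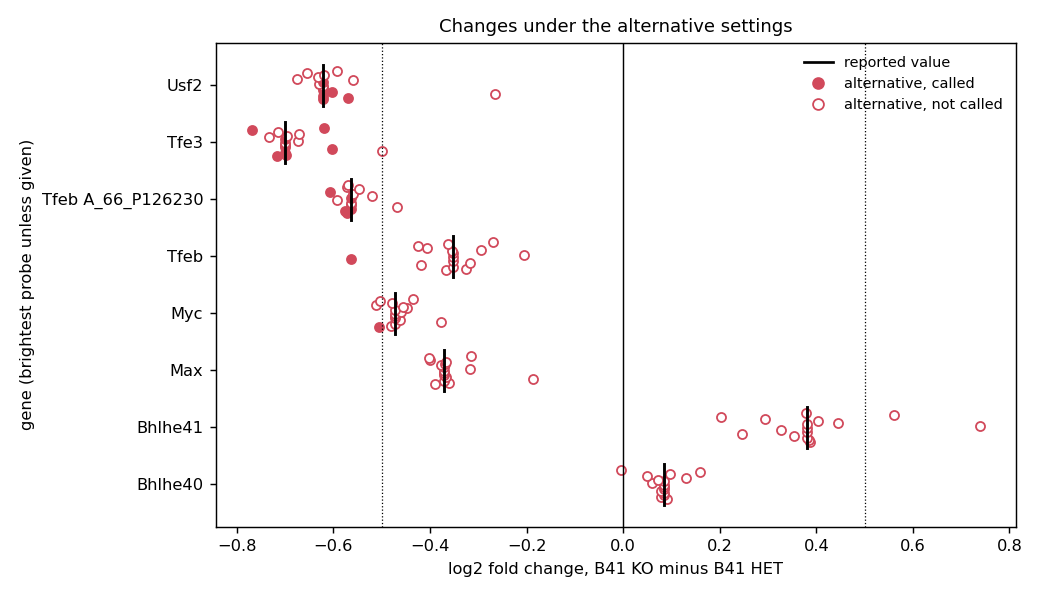
Log2 fold change (x axis, B41 KO minus B41 HET) of 8 probes (y axis) as reported (black lines) and under each alternative setting (circles, filled where called). *Usf2*, *Tfe3*, *Tfeb*, *Myc* and *Max* stay below 0 under every setting shown, with *Usf2* at -0.27 when its probes are averaged, and *Bhlhe41* stays between 0.20 and 0.74 without a call.

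The partners of these factors were read from lists fixed for this account. Of 17 genes of the MYC-MAX-MLX network, 0 were called higher and 2 lower (11.8%, beside 4.05% of all genes), with a median log2 fold change of -0.34 beside 0.01 for all genes. At an unadjusted p under 0.05 in limma, 0 were higher and 7 lower, where 10.5% of all genes were higher and 14.5% lower, shares against which the unadjusted counts of the other lists can be read. *Mxd1*, a repressor that competes with Myc for Max, read 10.27, 10.26 and 10.06 in B41 HET and 9.63, 9.59 and 9.49 in B41 KO samples and fell by 0.63 (adjusted p = 0.0202 from limma). Its other probe fell by 0.96 (adjusted p = 0.00675). *Trrap*, a scaffold of histone acetyltransferase complexes that Myc recruits, fell by 0.52 (adjusted p = 0.0301) on its brightest probe, and its other probes gave 0.00, -0.27 and -0.04, none called. On adjusted p alone *Zbtb17* was lower too (-0.38, adjusted p = 0.0467, named after its value was seen). The share of all genes that pass on adjusted p alone was not counted, here or for the lists below. The list median was -0.09 with the slide row as a block and between -0.36 and -0.09 over all settings. Of 34 other bHLH and HLH factors, 1 was called lower (2.94%) and 0 higher, with a median of -0.07. Without adjustment, at p under 0.05, 4 were higher and 7 lower. That gene, *Arnt2*, a dimer partner of the hypoxia and dioxin receptor factors, fell from 6.03 ± 0.13 (SD, n = 3) to 4.58 ± 0.08 (SD, n = 3), by 1.45 (adjusted p = 0.00309 from limma).

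Targets were read in the same way, beside 4.05% of all genes called lower and 1.44% higher. Of 15 clock output genes that depend on E-box and D-box elements, 1 was called lower (6.67%) and 0 higher, with a median of -0.06. At an unadjusted p under 0.05, 2 were higher and 2 lower. It was *Ciart*, a circadian repressor, which read 8.66, 8.50 and 8.60 in B41 HET and 7.60, 7.65 and 7.30 in B41 KO samples and fell by 1.07 (SE 0.12, adjusted p = 0.0102 from limma). A dimmer *Ciart* probe was well above background in the B41 HET samples only, at least 1.33-fold higher there than in the B41 KO samples, where the B41 KO signal was set no lower than the dimmest signal well above background on each array, and it was not called (adjusted p = 0.122). The part of the *Ciart* window at chr3:95882229-95882384 on the minus strand is shown because it holds CACGTG 3 times.
Ciart: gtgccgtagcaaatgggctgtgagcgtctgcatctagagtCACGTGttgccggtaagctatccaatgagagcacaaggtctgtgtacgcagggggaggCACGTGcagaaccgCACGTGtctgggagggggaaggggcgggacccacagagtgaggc
CACGTG was present in 4 of the 12 clock output genes with a window. The other clock genes, with *Per1*, *Per2*, *Cry1*, *Cry2* and *Dbp* (named after their values were seen) among them, were not called, and these 5 had log2 fold changes between -0.10 and 0.10. On adjusted p alone 2 more passed, also named after their values were seen, *Per3* (-0.41, adjusted p = 0.0364 from limma) and *Nr1d2* (0.43, adjusted p = 0.0486), each without overlap between the genotypes.

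Of 36 measured genes of the CLEAR lysosome and autophagy list, 2 were called lower (5.56%) and 0 higher, with a median of -0.03. At an unadjusted p under 0.05 the counts were 7 higher and 12 lower. *Atp6v0c*, the proteolipid subunit of the lysosomal proton pump, fell by 1.104 (SE 0.10, adjusted p = 0.00745 from limma), from 12.92 ± 0.15 to 11.81 ± 0.08 (SD, n = 3 each). Its other probe gave -0.39 (adjusted p = 0.0578). *Sqstm1*, the autophagy receptor p62, fell by 0.63 (adjusted p = 0.0112), and its other probe gave -0.42 (adjusted p = 0.187). On adjusted p alone 3 more genes, named after their values were seen, were higher in B41 KO samples: *Ctsa* (0.41), *Lamp1* (0.41) and *Psap* (0.37). Again the share of all genes at that level was not counted. CACGTG was present in the windows of 13 of the 29 list genes with an entry, or 44.8%, against 9.19% of tested genes. The 13 had a median log2 fold change of 0.08 with 0 called, and the 16 without it a median of -0.10 with both called genes. The 7 list genes without a window had a median of -0.14. Medians with and without the site were -0.01 and -0.05 for clock output genes and -0.17 and -0.36 for MYC-MAX-MLX partners. Of the lists below, nutrient signalling gave -0.02 and 0.07, pigment cells and osteoclasts -0.18 and 0.01, and MYC targets -0.002 and -0.02. Among other bHLH factors 1 gene had the site (0.51), beside -0.08 without it. These splits were not tested. The extended TCACGTGA was found in 7 of the 29 CLEAR list genes with an entry and in 1.41% of tested genes.

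No gene of the 19 on the list of MiT/TFE targets in pigment cells and osteoclasts was called in limma on its brightest probe (median -0.07), and 0 had an adjusted p of 0.05 or less, while 3 were higher and 1 lower at an unadjusted p under 0.05. Of 24 genes that carry nutrient signals to the MiT/TFE factors, *Lamtor2*, a subunit of the Ragulator complex that anchors mTORC1 to lysosomes, was called higher (0.59, adjusted p = 0.0311 from limma) and 0 were called lower, with a median of 0.03. At an unadjusted p under 0.05, 6 were higher and 7 lower. On adjusted p alone *Map4k3* was lower as well (-0.37, adjusted p = 0.0424, named after its value was seen). Of the other Ragulator subunits, named after their values were seen, *Lamtor1* gave -0.18, *Lamtor3* -0.59, *Lamtor4* -0.01 and *Lamtor5* 0.04, none called (adjusted p of 0.204, 0.122, 0.979 and 0.913).

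Of 30 MYC targets, 4 were called lower (13.3%) and 0 higher, with a median of -0.03. The counts at an unadjusted p under 0.05 were 2 higher and 8 lower. *Odc1*, the rate-limiting enzyme of polyamine synthesis, read 9.42, 9.43 and 9.43 in B41 HET and 7.92, 7.89 and 7.70 in B41 KO samples. It fell by 1.59 (SE 0.08, adjusted p = 0.00176 from limma), and its other probe fell by 0.76 (adjusted p = 0.0167). *Mat2a*, which makes S-adenosylmethionine, fell by 0.57 (adjusted p = 0.0196), *Nop2*, a nucleolar RNA methyltransferase, by 0.53 (adjusted p = 0.0340) and *Ccnd2*, a D-type cyclin, by 0.51 (adjusted p = 0.0319). The other probes of *Mat2a* and *Ccnd2* gave -0.29 (adjusted p = 0.102) and -0.52 (adjusted p = 0.149) and were not called. On adjusted p alone *Srm* (-0.48) and *Eno1* (-0.48) were lower too, named after their values were seen. Among nucleolar genes on the same list, named after their values were seen, *Ncl*, *Npm1* and *Fbl* were not called, with log2 fold changes of -0.12, 0.08 and 0.12. Of the 4 genes, *Nop2* alone had CACGTG in its window, of which the part at chr6:125131783-125131868 on the plus strand is shown. *Ccnd2* had no window.
Nop2: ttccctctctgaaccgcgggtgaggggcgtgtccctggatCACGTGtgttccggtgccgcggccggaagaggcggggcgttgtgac
The share of the 24 MYC target genes with an entry that hold the site was 29.2%.

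Counting a call in either direction on any probe, and not the brightest alone, 8 of the 30 MYC targets, 2 of the 19 pigment cell and osteoclast genes, 2 of the 24 nutrient signalling genes, 2 of the 36 CLEAR genes, 1 of the 15 clock output genes, 2 of the 17 MYC-MAX-MLX partners and 2 of the 34 other bHLH factors were called, beside 7.42% of all genes.

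**Figure D4:**
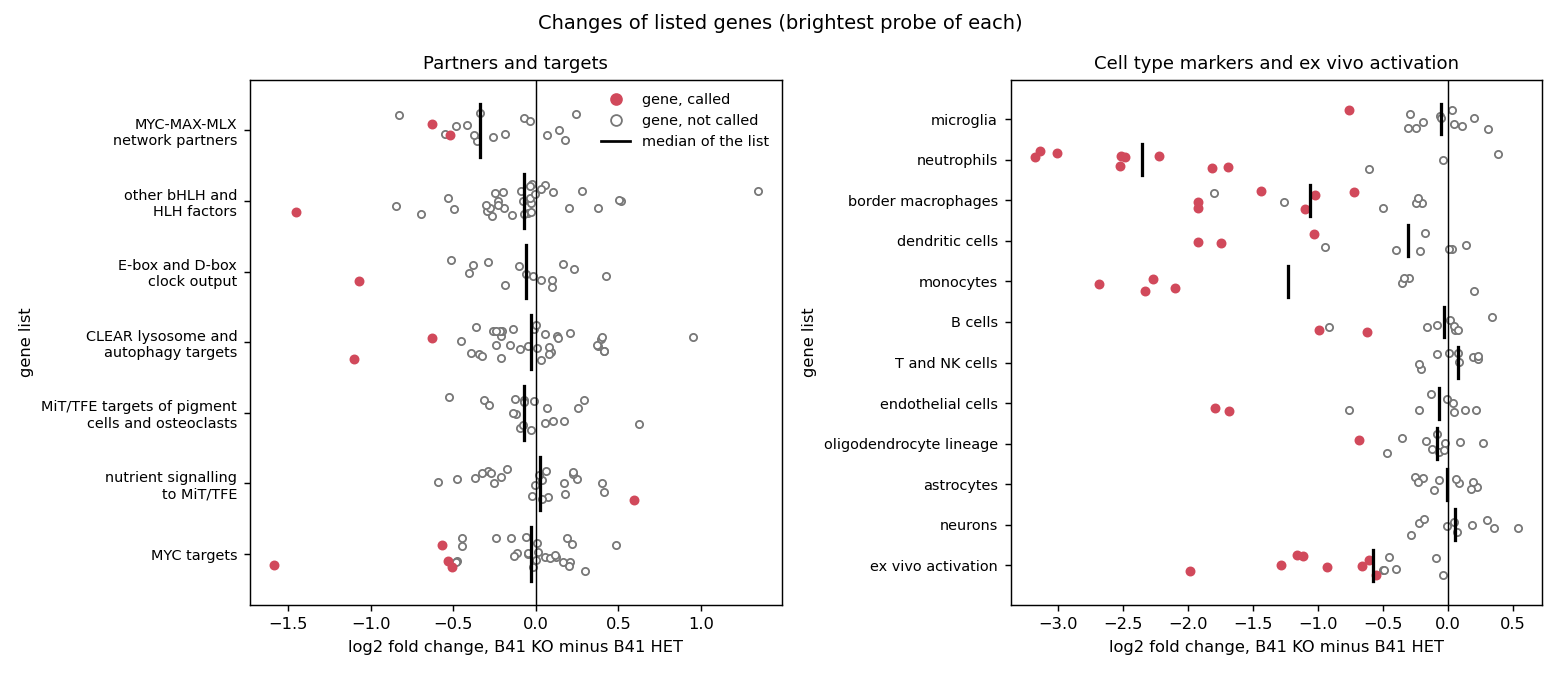
Log2 fold change (x axis, B41 KO minus B41 HET) of the brightest probe of each gene, by list (y axis), for partners and targets (left) and for cell type markers and activation genes (right), with red points for called genes and black lines for list medians. The medians of the target lists lie within 0.08 of 0, while those of the neutrophil, border macrophage, monocyte and activation lists lie to the left. On each of the neutrophil and monocyte lists 1 gene lies above 0.

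Markers of other cells moved with genotype in the same samples. Between 70.1% and 75.5% of probes were well above background per array, and none was saturated. Of 12 microglial markers 1 was called, *Fcrls* (-0.76), and the summed signal was 178996 to 194550 in B41 HET and 172656 to 181327 in B41 KO samples. *Cx3cr1*, the brightest, gave -0.25 (adjusted p = 0.137 from limma). Of 12 neutrophil markers 9 were called lower, *Ltf* by 3.18 and *Lcn2* by 1.81, with a summed signal of 31519 to 35437 against 6243 to 6672. Of 14 genes of activation during cell isolation 8 were called lower, with *Hspa1a* down by 1.98 and *Junb* at -0.40, and a sum of 97970 to 103226 against 63483 to 67019. Border macrophage markers were called lower for 6 of 12 (*Clec10a* by 1.92, *Stab1* at -0.50 and not called) and monocyte markers for 4 of 8 (*Plac8* by 2.68, on a probe well above background in 2 of the 3 B41 KO samples, *Ly6c2* by 2.10), with sums of 2663 to 2864 against 1813 to 1976 and of 1379 to 1475 against 369 to 395. Also called lower were genes among the dendritic cell markers (3 of 10, median -0.31, *Clec10a* being on this list too and the brightest, *Batf3*, at 0.03), endothelial markers (2 of 10, median -0.07, 4 above 0 and 6 below, *Ly6c1*, also the brightest, by 1.79) and B cell markers (2 of 10, median -0.03, 5 above 0 and 5 below, *Cd79a* by 0.99 and the brightest, *Cd79b*, at 0.02), with sums of 1894 to 2013 against 1593 to 1770, of 1241 to 1340 against 485 to 536 and of 1533 to 1735 against 1549 to 1589. All markers on the neutrophil and border macrophage lists were well above background on at least 1 array, and on the monocyte list *Itga4* was not on any. Nor were *Xcr1* (dendritic cells), *Ms4a1* (B cells) and the endothelial *Cdh5*, *Emcn*, *Flt1* and *Tek*. The other called endothelial marker was *Pecam1* (-1.68, named after its value was seen). *Cldn5* (-0.13), *Kdr* (-0.01), *Slco1a4* (0.04) and *Egfl7* (0.13) were not called. On each of the neutrophil and monocyte lists 1 gene was above 0 and not called. The part of these other cells and of activation was not tested for any of the lower signals of members, partners and targets. That holds for *Usf2*, *Tfe3*, *Tfeb*, *Myc*, *Max*, *Mxd1*, *Arnt2*, *Ciart*, *Atp6v0c*, *Sqstm1* and *Odc1* alike. In bulk RNA, fewer cells of a type and less RNA per cell cannot be told apart. Precision is limited by 3 arrays per genotype.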

How the data were processed

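Gene expression was measured on 6 single-colour Agilent arrays of the SurePrint G3 Mouse design, grouped by the genotype in the labels (3 B41 HET and 3 B41 KO samples). The authors deposited scanner output made with Agilent Feature Extraction 11.5.1.1, whose intensity values were background-subtracted within each array and left unscaled across arrays. The authors also deposited a table of log2 values whose 6 columns share the same quantiles, and it served as an alternative. Control spots were left out, log2 processed intensities of the 59305 other spots were quantile normalized, and then 95 to 136 spots per array that the scanner software marked as outliers were dropped and the spots of a probe averaged. The flag columns deposited with the intensities also gave which probes were well above background. Probes were named through their transcript identifiers from RefSeq tables on GRCm38.p6. Genotypes were compared with limma 3.58.1 in R 4.3.3, as the study's methods describe, over 56601 probes with values in at least 2 samples per genotype. The probe with the highest mean signal stood for a gene. Figures were drawn with matplotlib 3.10.9. From each list the text names the called genes with the largest changes without overlap, up to 4 in each direction, and from marker lists the brightest gene and the one with the largest change, where a list had moved. Genes outside this rule are given as not called or named as chosen after their values were seen. The members and gene lists were chosen with earlier results of these data known. Replicates are separate samples per the labels, each a pool of mice. The alternatives were a shift to the 75th percentile, the authors' table, normexp with an offset of 50, tests on probes detected above background on 3 or more arrays alone, outliers kept, trend and robust variance, a block for the replicate number or the slide row, omission of each sample, no fold threshold, the mean over probes and the probe with the lowest p.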

Additional observations from a re-analysis of the deposited data

How the results depend on the processing

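The number of called member genes, 2 as reported, was 0 with the replicate block, 0 with the slide row as a block, 0 with the mean over probes, and 0 to 1 with each sample left out. It was 3 with the 75th percentile shift, with no fold threshold or with the probe of the lowest p, and 2 under the other settings. Calls over all genes moved as well, from 950 lower and 337 higher as reported. They were 769 and 297 with the mean over probes, 797 and 442 with the 75th percentile shift, and 1269 and 464 with the lowest p. With each sample left out, 282 to 519 were lower and 86 to 179 higher. The replicate numbers were not found to pair the samples: deviations of samples with the same number correlated at 0.131, -0.00662 and 0.166 over 38226 probes, and the block left 19 genes called lower and 2 higher of all genes. The call of *Tfeb* probe A_66_P126230, which is not the brightest of its gene, was also lost with the replicate block (adjusted p = 0.0916). The count of called genes on the lists of partners and targets, 11 as reported, was 7 with normexp, 0 with the replicate block, 2 with the slide row as a block, 19 with the probe of the lowest p and 4 to 8 with each sample left out. Over all genes normexp left 643 called lower and 150 higher, and the all-gene counts for these other settings are given above. The *Bhlhe41* change minus the *Bhlhe40* change ran from 0.106 to 0.401 with each sample left out. The medians of the CLEAR list (-0.0795 to 0.0197), the other bHLH factors (-0.180 to 0.0210), the pigment cell and osteoclast list (-0.0807 to 0.0825), the nutrient signalling list (-0.0361 to 0.101) and the MYC targets (-0.0893 to 0.000477) changed sign between settings, and those of the MYC-MAX-MLX partners (-0.361 to -0.0944) and clock output genes (-0.189 to -0.0284) did not. Among the members, signs turned only for values that were not called. These were *Bhlhe40*, from -0.00378 (without the third B41 KO sample) to 0.160 with each sample left out, and *Usf1*, from -0.134 to 0.00478 (without the first B41 HET sample) in the same way, 0.0320 with the mean over probes and 0.128 with the probe of the lowest p. *Mitf* gave 0.0942 with the mean and 0.259 with the lowest p, and its probe A_51_P364274 gave -0.190 with the slide row and from -0.0412 (without the third B41 KO sample) to 0.264 with each sample left out. *Max* probe A_51_P188211 gave -0.0424 with normexp, -0.0224 without the second B41 HET sample, -0.125 and -0.0655 without the first and second B41 KO samples, and 0.194 without the third. The cause of these shifts was not tested, except that a fit with fewer samples or with a block has fewer degrees of freedom.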
